A study of Mus musculus with 128 samples.

Results

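Btg4 and 8 further genes that shorten or bind the poly(A) tails of maternal mRNA were followed in single mouse oocytes and embryos with and without Kdm4a. The genes are Btg4, the nuclease genes Cnot6, Cnot6l, Cnot7, Cnot8 and Pan2, the Pan2 partner Pan3, and the RNA-binding factors Zfp36l2 and Pabpn1l. They were chosen by gene symbol, 9 of the 41300 genes in the deposited table, and all 9 were found. Each group has a genotype and a stage, with 16 libraries per group, all C57BL/6: knockout (m-/p-) and WT (m+/p-) MII oocytes, which were not fertilized, and knockout and WT embryos at the 2-cell (1.5 days post fertilization), 4-cell (2.5 days) and 8-cell (3.5 days) stages. Knockout and wildtype eggs were both fertilized with Kdm4a knockout sperm, so all embryos carried a knockout paternal allele and wildtype embryos had the maternal copy alone. Every library came from 1 oocyte or embryo whose zona, the glycoprotein coat, had been dissolved in acid Tyrode. Both genotypes were collected at the same time, timed by the control embryos. Neither the deleted exons nor the mothers are given in the sources used here, so p-values measure the spread between single oocytes or embryos, some of which may share a mother.

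Messenger RNA stored in the growing oocyte is destroyed in waves during meiotic maturation and after fertilization, and removal of the poly(A) tail is the step that starts its decay. The CCR4-NOT complex does most of this work: it holds 1 nuclease of the CAF1 type (CNOT7 or CNOT8) and 1 of the CCR4 type (CNOT6 or CNOT6L), while PAN2 with its scaffold PAN3 forms a second deadenylase that acts on long tails. In mouse, BTG4 is a meiotic adaptor that binds the CAF1 nucleases and brings them to translated maternal mRNA, PABPN1L is an oocyte poly(A)-binding protein that works with BTG4, and ZFP36L2 binds AU-rich sequences and recruits CCR4-NOT. Because the libraries were made from polyadenylated RNA, a lower value can come from fewer transcripts or from shorter tails, and these cannot be told apart here.

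Library totals ran from 528377 to 4657857 estimated counts (median 2130600) in the 126 libraries used in the fits, of 127 kept. The library 8-cell knockout replicate 4 had too few counts and was left out. As 8-cell knockout replicate 7 is given apart, that group has n = 14. Values are CPM, counts scaled to a common library total, unless named otherwise, with mean ± SD. The targeted gene Kdm4a, a histone demethylase, averaged 1.28 ± 0.90 CPM in knockout and 10.9 ± 3.05 CPM in wildtype oocytes, and 2.65 ± 1.83 and 15.1 ± 4.81 CPM in knockout and wildtype 2-cell embryos. At the 4-cell stage the means were 1.76 ± 1.46 CPM in knockout and 4.58 ± 3.58 CPM in wildtype embryos, and at the 8-cell stage 2.13 ± 2.23 and 1.31 ± 1.16 CPM, so Kdm4a did not separate the 8-cell labels. All 6 oocyte markers examined were detected in every group, with median summed levels of 15271 CPM in knockout and 12283 CPM in wildtype oocytes. Of 10 cumulus and granulosa markers 5, Amh and Inha among them, were at 0 in all oocyte libraries of each genotype, and 1 averaged at least 1 CPM. The summed level of the list had a median of 99.6 CPM (50.4 to 120) in knockout oocytes. In wildtype oocytes it had a median of 92.1 CPM (64.4 to 117). These sums come almost wholly from the 1 marker that averaged at least 1 CPM. They do not decide whether cumulus or granulosa RNA was present. Of 7 morula markers, 4 in knockout and 3 in wildtype 8-cell embryos averaged at least 1 CPM. So did 4 in knockout and 5 in wildtype 2-cell embryos. The count therefore does not mark the 8-cell stage. MII knockout replicate 15 stood apart as the lowest of its group in Btg4 and Pabpn1l and the highest in Cnot7 and Cnot6.

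Promoters of 3 genes with contrasting courses are shown: Btg4, which fell between the 2-cell and 4-cell stages, Pabpn1l, which had already fallen by the 2-cell stage, and Cnot8, which rose. Each run holds 250 bases before and 50 after a RefSeq gene start on GRCm38.p6 (the mm10 assembly), 5′ to 3′ on the gene's strand. Capitals mark E-boxes, spelled CANNTG, the motif of basic helix-loop-helix factors such as the oocyte regulator FIGLA, which read the same on both strands.
Btg4, chr9:51115751-51116050, plus strand: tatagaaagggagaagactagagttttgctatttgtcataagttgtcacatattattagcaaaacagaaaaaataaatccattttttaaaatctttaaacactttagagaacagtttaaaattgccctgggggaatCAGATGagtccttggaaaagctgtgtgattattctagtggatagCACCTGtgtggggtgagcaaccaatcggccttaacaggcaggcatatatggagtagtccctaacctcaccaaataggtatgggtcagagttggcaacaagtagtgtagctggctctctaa
Pabpn1l, chr8:122622686-122622985, minus strand: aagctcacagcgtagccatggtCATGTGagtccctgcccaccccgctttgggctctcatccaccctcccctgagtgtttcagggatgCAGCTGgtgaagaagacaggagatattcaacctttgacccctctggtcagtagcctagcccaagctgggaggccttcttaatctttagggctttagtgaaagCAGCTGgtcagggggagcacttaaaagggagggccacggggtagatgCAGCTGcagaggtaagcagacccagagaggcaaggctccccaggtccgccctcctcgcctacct
Cnot8, chr11:58103979-58104278, plus strand: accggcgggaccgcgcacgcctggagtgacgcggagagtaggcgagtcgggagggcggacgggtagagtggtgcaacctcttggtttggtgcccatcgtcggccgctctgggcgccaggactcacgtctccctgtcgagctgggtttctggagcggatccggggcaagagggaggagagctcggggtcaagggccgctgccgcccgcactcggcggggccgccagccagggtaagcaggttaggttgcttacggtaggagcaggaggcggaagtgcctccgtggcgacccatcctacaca

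The Btg4 window held 2 E-boxes and the Pabpn1l window 4, while those of Cnot6, Cnot6l, Cnot8, Pan2 and Pan3 held 0. An E-box occurred in 72.3% of 32841 mouse promoter windows of the same length, so its presence is common. None of these 7 windows held TATAAA (13.6% of windows), and GGGCGG, the GC box, occurred 5 times in the Cnot6l window, 2 times in that of Cnot8 and 1 time each in those of Cnot6 and Pabpn1l (35.7% of windows have it; both strands were searched). The RefSeq start of Btg4, at 51116001, lies inside the deposited gene model, which begins at 51105878. Cnot7 and Zfp36l2 are named without a promoter.

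The ends of the 3′ UTRs are shown for Btg4, Pan2 and Cnot7, because a tail can be lengthened or shortened through signals that lie there. Capitals mark TTTTAT, a cytoplasmic polyadenylation element bound by CPEB1, AATAAA, the poly(A) signal, and TGTANATA, the Pumilio motif; each was searched on the transcript's strand of mm10 in the last 100 bases.
Btg4, chr9:51119797-51119826, plus strand: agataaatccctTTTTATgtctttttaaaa
Pan2, chr10:128321303-128321332, plus strand: cttaaaacagcatgTTTTATaaAATAAAag
Cnot7, chr8:40492560-40492589, minus strand: atttgtttttaaagctttTGTAAATAAAgg
In Cnot7 the Pumilio motif and the poly(A) signal overlap. TTTTAT was found 1 time in Btg4 and 3 times in Pan2, against 13.9% of 19397 transcript ends with at least 1 match. It was found 0 times in Cnot6, Cnot6l, Cnot7, Pan3, Zfp36l2 and Pabpn1l, and Cnot8 had no transcript with a complete 3′ end. A second spelling of the element, TTTTAAT, was found 1 time in Pan3 and 0 times in the other genes searched. It occurred in 5.03% of ends. The Btg4 window held neither AATAAA nor ATTAAA, another spelling of the poly(A) signal. The Pumilio motif occurred in 4.33% of ends, AATAAA in 64.8%.

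Btg4 (ENSMUSG00000032056.10, chr9:51105878-51119875, plus strand) was among the most abundant mRNAs of the egg. In MII oocytes its lowest, median and highest values were 6599, 8764 and 11035 CPM in knockout and 7162, 9239 and 10912 CPM in wildtype libraries. In 2-cell embryos they were 7404, 9349 and 10765 CPM in knockout and 6168, 8834 and 10506 CPM in wildtype. At those stages Btg4 took 0.868% to 0.928% of all counts and stood at place 11 to 14 of all genes by mean CPM per kilobase of exon. In 4-cell embryos the values were 13.3, 42.1 and 142 CPM in knockout and 5.002, 16.5 and 97.3 CPM in wildtype, and in 8-cell embryos 1.68, 5.07 and 38.9 CPM in knockout and 0.652, 3.38 and 38.3 CPM in wildtype. Every 4-cell and 8-cell library in these groups lay far below every oocyte and 2-cell library, and no library was at 0. By order of median, the 4 oocyte and 2-cell groups did not differ beyond their quartile ranges, the 4-cell knockout group stood clear above the 4-cell wildtype group, and the 8-cell groups overlapped.

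**Figure D1:**
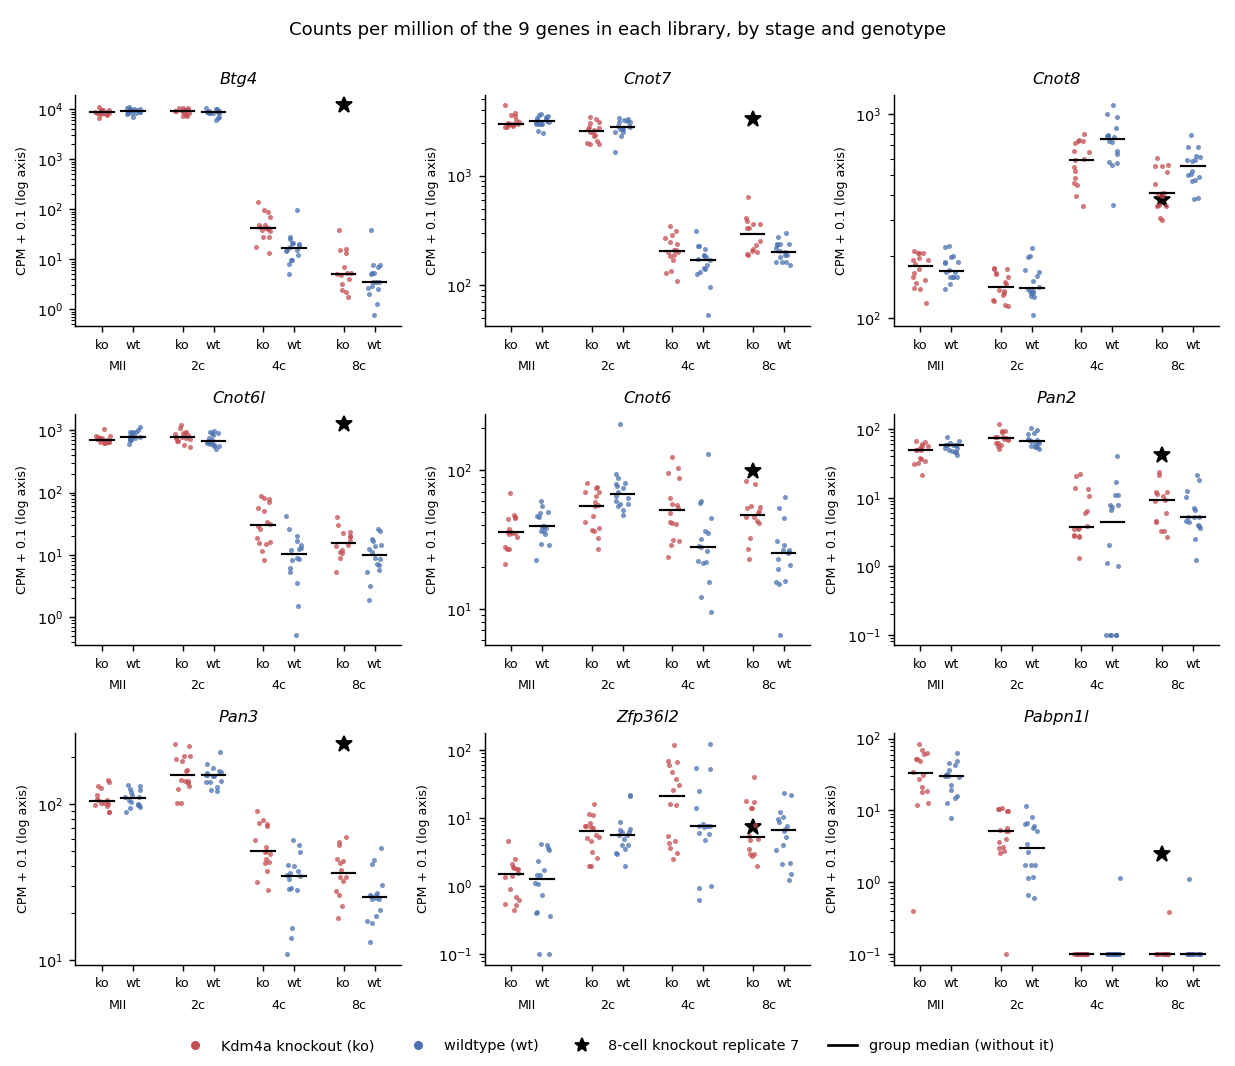
CPM of each of the 9 genes in every library, on a log axis after adding 0.1; red points are knockout, blue points wildtype, bars are group medians, and the star is 8-cell knockout replicate 7, which is in no median. Btg4, Cnot6l and Cnot7 drop between the 2-cell and 4-cell stages, Cnot8 rises, and the star sits at 12150 CPM of Btg4 while the other 8-cell libraries stay at or below 38.9 CPM.

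Pabpn1l (ENSMUSG00000069867.3, chr8:122619471-122622739, minus strand) had the earliest course. In oocytes its lowest, median and highest values were 0.298, 33.0 and 85.0 CPM in knockout and 7.65, 29.9 and 63.2 CPM in wildtype, where knockout replicate 15 was the lowest library. In 2-cell embryos they were 0, 5.09 and 10.8 CPM in knockout and 0.513, 2.94 and 11.6 CPM in wildtype. It was at 0 in 16 of 16 knockout and 15 of 16 wildtype 4-cell libraries, and in 13 of 14 knockout and 15 of 16 wildtype 8-cell libraries; a count of 0 allows up to 1.12 to 2.06 CPM in a 4-cell knockout library (3 counts of its total, counting error alone).

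Zfp36l2 (ENSMUSG00000045817.8, chr17:84183931-84187947, minus strand) was scarce in the oocyte and spread widely between 4-cell embryos. Its oocyte median was 1.40 CPM in knockout and 1.17 CPM in wildtype libraries, and its 2-cell median 6.26 CPM in knockout and 5.49 CPM in wildtype. In 4-cell embryos its lowest, median and highest values were 2.43, 20.7 and 116 CPM in knockout and 0.522, 7.54 and 124 CPM in wildtype. In 8-cell embryos the medians were 5.13 CPM in knockout and 6.54 CPM in wildtype. The 4-cell ranges of both genotypes covered nearly the same span.

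The CAF1 nucleases changed places. Cnot7 (ENSMUSG00000031601.16, chr8:40492540-40515847, minus strand) had lowest, median and highest values of 2759, 2978 and 4390 CPM in knockout and 2461, 3111 and 3654 CPM in wildtype oocytes. At the 2-cell stage these were 1943, 2575 and 3440 CPM in knockout and 1654, 2784 and 3349 CPM in wildtype, at the 4-cell stage 110, 206 and 350 CPM in knockout and 53.0, 172 and 310 CPM in wildtype, and at the 8-cell stage 191, 292 and 641 CPM in knockout and 152, 203 and 298 CPM in wildtype. Its paralogue Cnot8 (ENSMUSG00000020515.13, chr11:58104229-58118594, plus strand) ran the other way.

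The oocyte median of Cnot8 was 178 CPM in knockout and 169 CPM in wildtype libraries, and its 2-cell median 141 CPM in knockout and 140 CPM in wildtype. In 4-cell embryos its lowest, median and highest values were 353, 596 and 794 CPM in knockout and 358, 753 and 1103 CPM in wildtype, and in 8-cell embryos 300, 407 and 605 CPM in knockout and 381, 556 and 791 CPM in wildtype. All 4-cell and 8-cell values of Cnot8 were above all of its oocyte and 2-cell values.

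On a scale that allows levels of different genes to be compared, CPM per kilobase of exon, Cnot8 made up 9.34% ± 1.98 of the Cnot7 and Cnot8 total in knockout and 9.43% ± 1.41 in wildtype oocytes, and 9.49% ± 1.89 and 9.37% ± 2.73 in knockout and wildtype 2-cell embryos. At the 4-cell stage its share was 82.8% ± 6.81 in knockout and 88.6% ± 3.74 in wildtype, and at the 8-cell stage 71.8% ± 10.9 in knockout and 82.7% ± 3.78 in wildtype (SD, n = 14 to 16). Per kilobase, Cnot8 exceeded Cnot7 in 0 oocyte or 2-cell libraries, in 16 of 16 4-cell libraries of each genotype, and in 13 of 14 knockout and 16 of 16 wildtype 8-cell libraries. The combined level of Cnot6, Cnot6l, Cnot7 and Cnot8 was 993 ± 110 and 1001 ± 82.5 CPM per kilobase in knockout and wildtype oocytes, and 841 ± 135 and 892 ± 94.7 in knockout and wildtype 2-cell embryos. It was 352 ± 61.7 in knockout and 406 ± 93.3 in wildtype 4-cell embryos, and 300 ± 38.7 in knockout and 326 ± 54.0 in wildtype 8-cell embryos. Cnot7 shares 192 exon bases with Zdhhc2 on the opposite strand, and 70.1% of its non-zero values were not whole numbers, so some of its reads may be split with other loci. The same limit applies to Cnot8 (49.6%) and Btg4 (52.0%), which share no exon bases with another gene. Over all genes the share was 30.56%. Zdhhc2 itself had medians between 7.09 and 89.1 CPM.

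**Figure D2:**
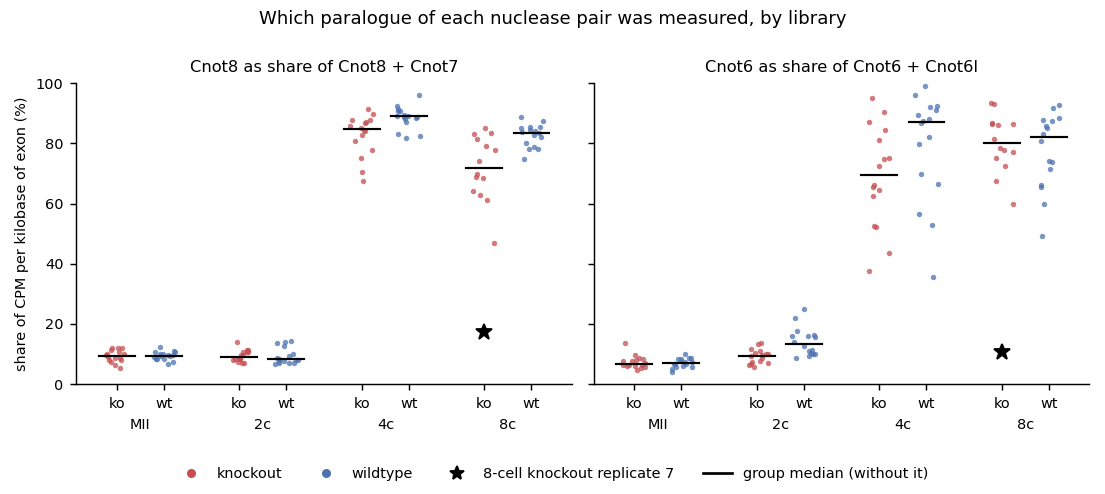
Share of Cnot8 in the Cnot7 and Cnot8 total (left) and of Cnot6 in the Cnot6 and Cnot6l total (right), from CPM per kilobase of exon, 1 point per library, with group medians as bars. Both shares lie at or below 24.97% in oocytes and 2-cell embryos. Later the Cnot8 share lies between 46.8% and 96.2% and the Cnot6 share between 35.6% and 99.1%. The star, 8-cell knockout replicate 7, lies at 17.2% and 10.8%.

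The CCR4 nucleases also traded order. Cnot6l (ENSMUSG00000034724.18, chr5:96070333-96161990, minus strand) had lowest, median and highest values of 625, 708 and 1044 CPM in knockout and 604, 785 and 1119 CPM in wildtype oocytes, and of 549, 777 and 1230 CPM in knockout and 509, 671 and 987 CPM in wildtype 2-cell embryos. At the 4-cell stage these were 8.25, 30.3 and 88.9 CPM in knockout and 0.422, 10.4 and 42.8 CPM in wildtype, and at the 8-cell stage 5.26, 15.4 and 40.3 CPM in knockout and 1.77, 10.03 and 26.1 CPM in wildtype. The lowest 2-cell library was above the highest 4-cell library in both genotypes.

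Cnot6 (ENSMUSG00000020362.13, chr11:49671503-49712723, minus strand) had medians of 35.4 and 39.1 CPM in knockout and wildtype oocytes, 55.3 and 67.0 CPM in knockout and wildtype 2-cell embryos, 51.4 and 27.9 CPM in knockout and wildtype 4-cell embryos, and 47.8 and 25.3 CPM in knockout and wildtype 8-cell embryos. Neighbouring groups in the order of its medians all overlapped in their quartile ranges. Its share of the CCR4 pair per kilobase averaged 7.36% ± 2.15 in knockout and 7.07% ± 1.57 in wildtype oocytes and 9.25% ± 2.42 in knockout and 14.1% ± 4.66 in wildtype 2-cell embryos. It averaged 69.0% ± 16.8 in knockout and 79.1% ± 17.96 in wildtype 4-cell embryos, and 80.2% ± 9.498 in knockout and 77.7% ± 12.6 in wildtype 8-cell embryos. Per kilobase, Cnot6 exceeded Cnot6l in 14 of 16 knockout and 15 of 16 wildtype 4-cell libraries. At the 8-cell stage it did so in 14 of 14 knockout and 15 of 16 wildtype libraries.

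Of the other deadenylase, Pan2 (ENSMUSG00000005682.9, chr10:128303335-128321353, plus strand), the nuclease, had medians of 50.1 and 58.1 CPM in knockout and wildtype oocytes and 74.1 and 66.2 CPM in knockout and wildtype 2-cell embryos. Its medians were 3.65 CPM in knockout and 4.26 CPM in wildtype 4-cell embryos, where it was at 0 in 0 of 16 knockout and 5 of 16 wildtype libraries, and 9.07 CPM in knockout and 5.16 CPM in wildtype 8-cell embryos. Pan3 (ENSMUSG00000029647.15, chr5:147430161-147548502, plus strand), the scaffold, had medians of 105 and 109 CPM in knockout and wildtype oocytes and of 153 and 154 CPM in knockout and wildtype 2-cell embryos. In 4-cell embryos its lowest, median and highest values were 28.0, 49.8 and 90.5 CPM in knockout and 10.9, 34.8 and 59.2 CPM in wildtype, and in 8-cell embryos the medians were 36.1 CPM in knockout and 25.5 CPM in wildtype. Every 4-cell Pan3 value lay below every 2-cell value in both genotypes.

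The step between the 2-cell and 4-cell stages was tested within each genotype with edgeR, calling a change at an adjusted p under 0.05 with a log2 change of 1 or more either way. All 9 genes were tested. In knockout embryos 2 rose and 6 fell, against a background of 75% of 10766 genes called, 32.6% higher and 42.4% lower. In wildtype embryos 2 rose and 7 fell, against 74.4% called, 30.5% higher and 43.9% lower. Beside so high a background these counts are no result about the 9 genes. Their median log2 change was -3.67 in knockout and -3.63 in wildtype, against -0.34 and -0.48 over all genes, and -1.89 in knockout with Pabpn1l, which was at 0 in every 4-cell knockout library, set at its bound. The bound is taken per library and not from summed counts, so the fall of Pabpn1l may be larger.

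Btg4 fell by 7.84 ± 0.30 on the log2 scale in knockout (adjusted p = 6.65e-35, edgeR) and fell by 9.01 ± 0.31 in wildtype embryos (adjusted p = 8.36e-37), where ± is the standard error. Pabpn1l also fell in both, with summed counts of 0 at the 4-cell stage against 197 at the 2-cell stage in knockout. In wildtype the counts were 2 against 137, a ratio of 0.015 (95% counting interval 0.0018 to 0.0553). The knockout level was at least 3.62-fold lower, against the floor of 3 counts per library. That bound is taken per library and the wildtype ratio from summed counts, so the sizes of the 2 falls cannot be compared. Cnot6l fell by 4.71 ± 0.30 in knockout and fell by 6.18 ± 0.32 in wildtype, and Cnot7 fell by 3.903 ± 0.16 in knockout and fell by 4.33 ± 0.17 in wildtype. Pan2 fell by 3.67 ± 0.41 in knockout and fell by 3.63 ± 0.41 in wildtype, and Pan3 fell by 1.89 ± 0.16 in knockout and fell by 2.47 ± 0.17 in wildtype. Cnot8 rose by 1.70 ± 0.13 in knockout and 2.00 ± 0.13 in wildtype. Zfp36l2 rose by 1.90 ± 0.51 in knockout and 1.25 ± 0.50 in wildtype; its wildtype call was lost with RLE factors (log2 change 1.02, adjusted p = 0.0527), with limma-voom (0.18, adjusted p = 0.734) and with the replicate number as a block (0.83, adjusted p = 0.142). Cnot6 fell by 1.39 ± 0.24 in wildtype and had -0.19 ± 0.23 in knockout embryos (adjusted p = 0.454), which did not pass.

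**Figure D3:**
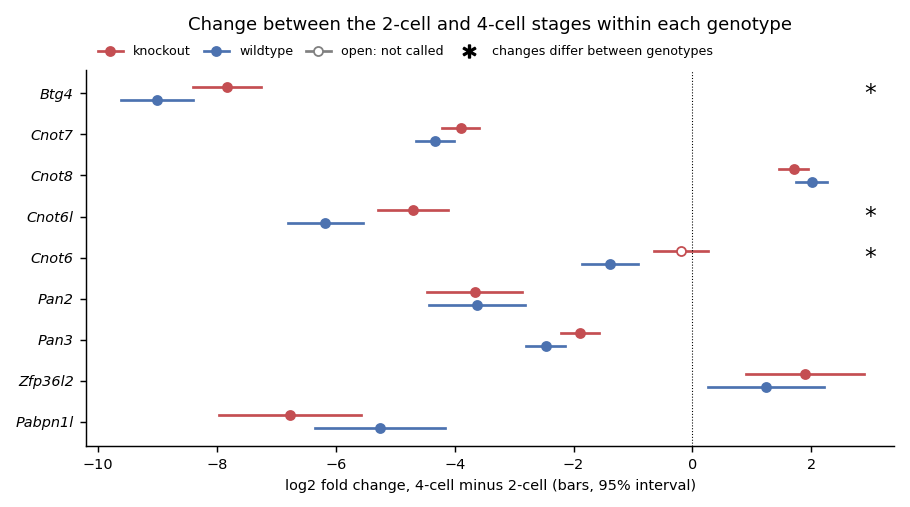
Log2 change of each gene, 4-cell minus 2-cell, with 95% intervals, for knockout (red, upper) and wildtype (blue, lower); open points did not pass and asterisks mark the 3 genes whose change differed between genotypes. Btg4 fell by 7.84 in knockout and fell by 9.01 in wildtype embryos, and Cnot8 and Zfp36l2 rose in both; the Pabpn1l points depend on the fit's prior count, since nearly all 4-cell libraries were at 0.

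The difference between those changes was tested as an interaction of genotype and stage. Of the 9 genes 3 passed, all with the change in knockout above that in wildtype, against 15.5% of 10766 genes called and 11.4% called in that direction. Cnot6l differed by 1.47 ± 0.37 (adjusted p = 0.00438, edgeR), Cnot6 by 1.2 ± 0.33 (adjusted p = 0.00868) and Btg4 by 1.18 ± 0.32 (adjusted p = 0.00751), beside a median of 0.20 over all genes. These 3 passed under each of the 8 alternative settings run for this test. Replicates 1 to 8 and 9 to 16 were not fitted apart for it, so its hold within each set is not known. Pan3 (0.58 ± 0.23, adjusted p = 0.0685), Cnot7 (0.43 ± 0.20, adjusted p = 0.143) and Cnot8 (-0.30 ± 0.17, adjusted p = 0.244) did not pass.

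The other steps moved fewer of the genes. Between oocyte and 2-cell stage Pabpn1l fell by 3.07 ± 0.35 in knockout and fell by 3.26 ± 0.36 in wildtype, and Zfp36l2 rose by 1.76 ± 0.38 in knockout and 1.68 ± 0.37 in wildtype, with adjusted p-values of 2.81e-12 and 8.91e-13 for Pabpn1l and 2.9e-05 and 4.65e-05 for Zfp36l2 (edgeR). The remaining 7 genes changed by less than 1 on the log2 scale in both genotypes; 49.2% of 10240 genes were called in knockout (30.6% higher, 18.6% lower) and 51.1% in wildtype (31.9% higher, 19.2% lower). Scaling matters at this step: the median over all genes was 0.19 in knockout and 0.21 in wildtype with TMM factors, and 0.61 and 0.64 with library totals, so Btg4 read -0.34 and -0.51 with the first and 0.08 and -0.08 with the second. None of the 9 genes passed the interaction at this step (3.99% of genes called).

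Between the 4-cell and 8-cell stages Btg4 fell further, by 2.48 ± 0.42 in knockout (adjusted p = 7.43e-06, edgeR) and fell by 1.61 ± 0.40 in wildtype (adjusted p = 0.000735). Zfp36l2 fell by 1.59 ± 0.56 in knockout (adjusted p = 0.0279) and fell by 1.28 ± 0.54 in wildtype (adjusted p = 0.0485), and Cnot6l fell by 1.07 ± 0.36 in knockout (adjusted p = 0.0185) and had 0.03 ± 0.35 in wildtype. That is 3 of 8 genes tested in knockout and 2 of 8 in wildtype, all lower, against 13% and 22.1% of 8908 genes called, 6.61% and 12.4% lower. The Cnot6l call was lost without 4-cell knockout replicate 7, the library highest in Btg4 (log2 change -0.98, under the fold minimum), and with limma-voom (-0.89). The wildtype Zfp36l2 call was lost with limma-voom (-0.14, adjusted p = 0.867), with the replicate number as a block (-0.70, adjusted p = 0.326), without the low-count filter (-1.22, adjusted p = 0.103), without 8-cell wildtype replicate 1 (-1.23, adjusted p = 0.0631) and with 8-cell knockout replicate 7 kept in (adjusted p = 0.0564). Its knockout call was lost without the filter (-1.56, adjusted p = 0.0547) and with limma-voom (-1.26, adjusted p = 0.0586). None of the 8 genes passed the interaction (1.86% called), including Cnot6l (-1.10 ± 0.50, adjusted p = 0.276).

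Knockout was then set against wildtype at each stage, over 14 or 16 libraries per group. Ranges of knockout and wildtype libraries overlapped for each of the 9 genes at each stage, so none of the differences below separated the genotypes library by library. In oocytes 0 of 8 genes tested passed, against 12% of 7680 genes called (Zfp36l2 was below the expression filter), and their median log2 fold change was -0.02 against 0.02 over all genes. At an unadjusted p under 0.05 only Pan2 was lower, at 46.9 ± 13.2 CPM in knockout and 56.2 ± 9.13 CPM in wildtype (log2 fold change -0.25 ± 0.11, adjusted p = 0.142, edgeR); DESeq2 and limma-voom also called 0 of the 8. Btg4 stood at -0.05 with a 95% interval of -0.19 to 0.10, Cnot7 at 0.05 (-0.13 to 0.22) and Cnot6l at -0.15 (adjusted p = 0.224).

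Some oocyte values had opposite signs in 2 sets of replicate numbers. The labels put tubes in 8-tube strips without saying which replicates shared one, and replicates 1 to 8 and 9 to 16 were also fitted apart. Cnot6l read -0.40 in replicates 1 to 8 (adjusted p = 0.00879) and 0.09 in replicates 9 to 16 (adjusted p = 0.694), Cnot6 -0.53 (adjusted p = 0.0392) and 0.37 (adjusted p = 0.377), and Pabpn1l 0.72 (adjusted p = 0.043) and -0.24 (adjusted p = 0.852). The difference between the sets was not tested.

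In 2-cell embryos 1 of 9 genes passed, against 17.3% of 8728 genes called and 10% called lower. Cnot6 was lower in knockout, with lowest, median and highest values of 26.7, 55.3 and 81.4 CPM in knockout and 47.6, 67.0 and 214 CPM in wildtype (log2 fold change -0.46 ± 0.16, adjusted p = 0.0439, edgeR). Of the knockout libraries 11 of 16 lay below the wildtype median and 7 below the lowest wildtype library. The call was lost without the low-count filter (adjusted p = 0.0863), with the replicate number as a block (0.0944) and with all 8 groups in 1 fit (0.202); it read -0.79 (adjusted p = 0.047) in replicates 1 to 8 and -0.15 (adjusted p = 0.714) in 9 to 16. Cnot6l had 814 ± 176 CPM in knockout and 716 ± 154 CPM in wildtype (0.23 ± 0.10, adjusted p = 0.117), with -0.16 (adjusted p = 0.374) and 0.61 (adjusted p = 0.00659) in the same sets of replicates. Btg4 read 0.14 ± 0.09 (adjusted p = 0.279). The summed level of 5 genome activation markers ran from 374 to 2602 CPM (median 985) in knockout and from 823 to 3628 CPM (median 1835) in wildtype 2-cell embryos, all 5 being detected in both, and their part in these values was not tested.

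**Figure D4:**
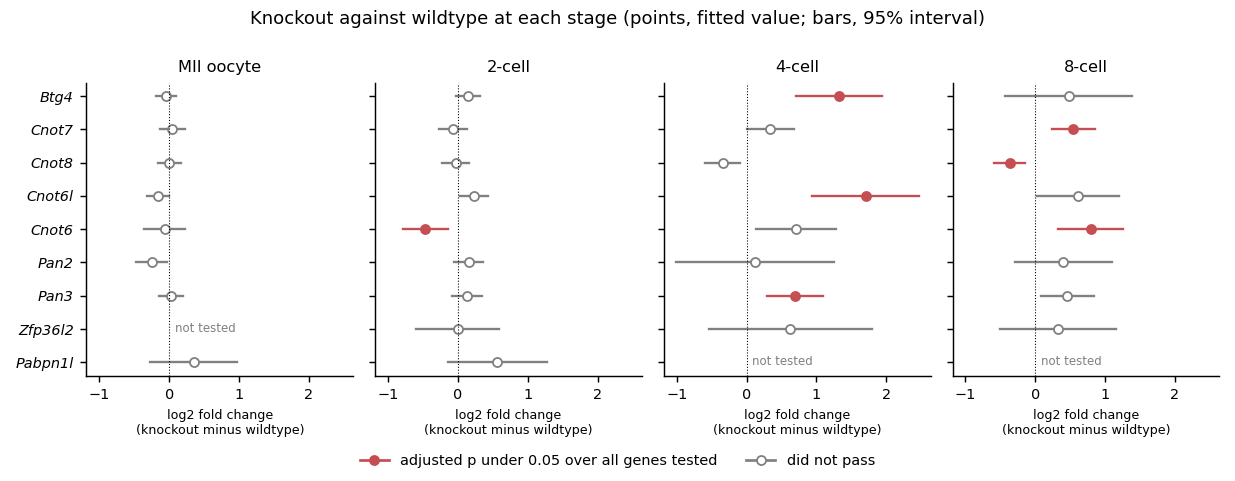
Log2 fold change, knockout minus wildtype, of each gene at each stage with its 95% interval; red points passed an adjusted p of 0.05 in edgeR over all genes tested, open grey points did not. No gene passed in oocytes, where the Pan2 interval runs from -0.47 to -0.03 and the Pabpn1l interval from -0.27 to 0.97, and at the 4-cell stage Btg4, Cnot6l and Pan3 lie above 0.

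In 4-cell embryos 3 of 8 genes tested passed, all higher in knockout, against 16.4% of 7478 genes called and 8.97% called higher (Pabpn1l was below the filter). Cnot6l averaged 39.6 ± 27.8 CPM in knockout and 12.4 ± 10.5 CPM in wildtype embryos (log2 fold change 1.70 ± 0.39, adjusted p = 0.00238, edgeR); knockout exceeded the wildtype median in 15 of 16 libraries and the highest wildtype library in 6. Btg4 averaged 51.4 ± 32.9 CPM in knockout and 21.2 ± 21.3 CPM in wildtype (1.33 ± 0.31, adjusted p = 0.00313), again with 15 of 16 above the wildtype median. Pan3 averaged 54.8 ± 18.4 CPM in knockout and 34.2 ± 13.6 CPM in wildtype (0.69 ± 0.20, adjusted p = 0.0182), with 14 of 16 above. The median of the 8 genes was 0.66, against -0.01 over all genes.

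The sets of replicates were again fitted apart. Cnot6l and Btg4 passed in replicates 9 to 16 alone. Pan3 passed in neither set. In replicates 1 to 8 Cnot6l read 1.10 (adjusted p = 0.224), Btg4 0.98 (adjusted p = 0.239) and Pan3 0.61 (adjusted p = 0.337), and in replicates 9 to 16 they read 2.43 (adjusted p = 0.014), 1.78 (adjusted p = 0.0116) and 0.74 (adjusted p = 0.0994), so the sign was the same in both. The summed level of the 6 oocyte markers moved the same way. It ran from 81.0 to 784 CPM (median 131) in knockout and from 15.4 to 204 CPM (median 60.5) in wildtype 4-cell embryos. All 6 were present in both genotypes. Oosp1 alone averaged 106 ± 157 CPM in knockout and 34.7 ± 40.1 CPM in wildtype. The sum therefore rests largely on Oosp1 and does not show that each marker was higher. The part of these markers in the result was not tested.

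Of the other genes at the 4-cell stage, Cnot6 averaged 58.0 ± 29.6 CPM in knockout and 36.3 ± 29.1 CPM in wildtype (0.71 ± 0.29, adjusted p = 0.0907), with 15 of 16 knockout libraries above the wildtype median; it passed with limma-voom (adjusted p = 0.0141), with the replicate block (0.0418) and with all groups in 1 fit (0.0106). Cnot8 averaged 589 ± 137 CPM in knockout and 742 ± 184 CPM in wildtype (-0.34 ± 0.13, adjusted p = 0.063), with 15 of 16 knockout libraries below the wildtype median. Without 4-cell wildtype replicate 1, the wildtype library highest in Btg4, Cnot6l and Pan2, Cnot8 passed at -0.37 (adjusted p = 0.0397). Cnot7 (0.34 ± 0.17, adjusted p = 0.17), Zfp36l2 (0.62 ± 0.59, adjusted p = 0.508) and Pan2 (0.12 ± 0.58, adjusted p = 0.917) did not pass.

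In 8-cell embryos 3 of 8 genes tested passed, 2 higher and 1 lower in knockout, against 12.4% of 7301 genes called, 6.94% higher and 5.42% lower. The CAF1 paralogues went opposite ways: Cnot7 averaged 309 ± 124 CPM in knockout and 209 ± 42.6 CPM in wildtype (0.54 ± 0.16, adjusted p = 0.0194, edgeR), and Cnot8 438 ± 103 CPM in knockout and 556 ± 111 CPM in wildtype (-0.37 ± 0.11, adjusted p = 0.0278). For Cnot7, 7 of 14 knockout libraries were above the highest wildtype library, and for Cnot8, 5 of 14 were below the lowest. Cnot6 averaged 48.8 ± 16.8 CPM in knockout and 27.6 ± 14.96 CPM in wildtype (0.79 ± 0.23, adjusted p = 0.0238), with 13 of 14 knockout libraries above the wildtype median.

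None of the 3 passed within a set of replicates: Cnot7 read 0.60 (adjusted p = 0.157) and 0.48 (adjusted p = 0.289), Cnot8 -0.32 (adjusted p = 0.354) and -0.41 (adjusted p = 0.218), and Cnot6 0.46 (adjusted p = 0.539) and 1.16 (adjusted p = 0.0663), each in replicates 1 to 8 and then 9 to 16. Cnot7 also missed the threshold with the replicate block (adjusted p = 0.0778). Btg4 averaged 8.77 ± 9.87 CPM in knockout and 6.09 ± 8.85 CPM in wildtype (0.47 ± 0.47, adjusted p = 0.536). Cnot6l (0.61 ± 0.30, adjusted p = 0.179), Pan3 (0.46 ± 0.19, adjusted p = 0.117), Pan2 (0.40 ± 0.35, adjusted p = 0.487) and Zfp36l2 (0.32 ± 0.42, adjusted p = 0.658) did not pass. The median of the 8 genes was 0.47, against 0.02 over all genes. Summed oocyte markers ran from 19.97 to 129 CPM in knockout and 8.48 to 45.9 CPM in wildtype 8-cell embryos, and their part in these values was not tested. Among them, Oosp1 averaged 25.55 ± 29.04 CPM in knockout and 6.34 ± 6.22 CPM in wildtype.

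The library labelled 8-cell knockout replicate 7 went against its stage. It held 12150 CPM of Btg4, 25249 counts, where the other 14 knockout libraries ran from 1.68 to 38.9 CPM and the wildtype libraries from 0.652 to 38.3 CPM. Cnot6l was at 1247 CPM, Cnot7 at 3304 CPM and Pan3 at 242 CPM, levels within or, for Cnot6l, just above the 2-cell knockout ranges of 549 to 1230, 1943 to 3440 and 101 to 244 CPM. Zfp36l2 and Pabpn1l also lay within their 2-cell knockout ranges. Zfp36l2, at 7.22 CPM, lay within the range of the other 8-cell knockout libraries too (1.87 to 39.65 CPM), so it does not tell the stages apart. Btg4 was above its highest 2-cell knockout value (10765 CPM), as was Cnot6 (98.7 against 81.4 CPM). Pan2, at 42.4 CPM, was below its lowest 2-cell knockout value (51.0 CPM). Cnot8 was at 376 CPM, within the range of the other 8-cell knockout libraries (300 to 605 CPM) and above the highest 2-cell knockout library (176 CPM). Over 9576 genes, its log2(CPM + 1) values had a Pearson r of 0.78 with the 2-cell knockout mean, 0.77 with the oocyte knockout mean and 0.14 with the 8-cell knockout mean. It had 9638 genes with a count and 18.9% mitochondrial counts, where the other 8-cell knockout libraries had 12192 to 15431 genes and 3.29% to 10.2%. With this library kept in, Btg4 (8.05, adjusted p = 0.0022), Cnot6l (4.01, adjusted p = 0.00405) and Pan3 (1.29, adjusted p = 0.0202) would pass at the 8-cell stage and Cnot8 would not (adjusted p = 0.153).

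The courses of the genes were compared by the Pearson r of group mean log2(CPM + 1) over the 8 groups, which share stages and are few, so r is a description. Btg4 and Cnot6l had an r of 0.99, Cnot7 and Cnot8 -0.985, and Cnot6 had an r of at most 0.67 with any other of the 9. Among 6588 genes whose mean reached 20 CPM in some group, the 3 closest to Btg4 were Ppp1r12a (0.9998), Pak7 (0.9997) and Pakap (0.9995), those closest to Cnot8 were Anapc7, Ccnt1 and Tmem186 (0.997 to 0.998), and among those closest to Cnot7 were Uso1 (0.998) and Tdp1 (0.9975). Closest to Cnot6l were Sfmbt1, Strn and Taf9b, to Pabpn1l Golm1, Rad51ap2 and Kcnk13, and to Pan3 Ina, Gtdc1 and Abl2, all at 0.997 or more. Pan2 was closest to Tmbim1, Rpa3 and Mtus1 (0.997 to 0.998), Zfp36l2 to Ahcyl1, Sod2 and Dnajc12 (0.979 to 0.984) and Cnot6 to Kif2a, Med13 and Tab3 (0.903 to 0.934).

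Other genes of tail metabolism were counted by list in the same genotype tests. Over all genes tested, 12% passed in oocytes, 17.3% in 2-cell, 16.4% in 4-cell and 12.4% in 8-cell embryos. Among deadenylases outside the 9, 4 of 6 tested were higher in knockout 4-cell embryos, against 8.97% of all genes called higher there (list median 0.66, all genes -0.01), including Parn, a poly(A)-specific ribonuclease (62.5 ± 20.3 CPM in knockout and 36.9 ± 12.02 CPM in wildtype, adjusted p = 0.00481), and Angel2, a CCR4-related protein (29.6 ± 12.1 CPM in knockout and 14.8 ± 8.25 CPM in wildtype, adjusted p = 0.00879). At the other stages 0 of 5 passed in oocytes, 1 of 6 in 2-cell embryos (Pnldc1, lower) and 2 of 6 in 8-cell embryos (Angel2 higher, Toe1 lower). Of deadenylation adaptors outside Zfp36l2, 3 of 9 were higher at the 4-cell stage (list median -0.01, as over all genes), including the Roquin genes Rc3h2 (131 ± 29.7 CPM in knockout and 56.1 ± 23.5 CPM in wildtype, adjusted p = 1.76e-05) and Rc3h1 (37.0 ± 12.6 and 22.3 ± 10.3 CPM, adjusted p = 0.0179). In oocytes 0 of 12 passed, in 2-cell embryos 1 of 11 (Ythdf2, an m6A reader, lower) and in 8-cell embryos 1 of 8 (Rc3h2, higher).

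Among CCR4-NOT subunits that are not nucleases, 1 of 6 passed in oocytes (Cnot4, a ubiquitin ligase, lower) and, against 17.3% of all genes, 3 of 7 in 2-cell embryos, where Cnot11 was higher and Cnot2 and Cnot10 were lower in knockout; 0 of 6 passed at the 4-cell and at the 8-cell stage, where the medians were -0.20 and -0.03. Cnot2, part of the module that binds the scaffold CNOT1, averaged 186 ± 39.3 CPM in knockout and 312 ± 89.7 CPM in wildtype 2-cell embryos (adjusted p = 0.000387). Of the antiproliferative BTG and TOB genes other than Btg4, 3 of 4 passed at the 2-cell stage (17.3% of all genes passed, 10% lower), Tob1 (4.30 ± 2.42 CPM in knockout and 13.7 ± 13.5 CPM in wildtype, adjusted p = 0.00084) and Tob2 lower and Btg3 higher. In oocytes 0 of 3 and in 4-cell embryos 0 of 2 passed. In 8-cell embryos 1 of 2 passed (Btg3, higher).

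Of poly(A)-binding genes other than Pabpn1l, 2 of 6 passed in oocytes, 3 of 7 in 2-cell embryos, 0 of 6 in 4-cell embryos and 1 of 6 in 8-cell embryos. Over all genes the shares were 12%, 17.3%, 16.4% and 12.4%. Paip2, which encodes an inhibitor of poly(A)-binding protein, was higher in knockout oocytes (232 ± 203 CPM in knockout and 104 ± 60.7 CPM in wildtype, adjusted p = 0.0194). At the 2-cell stage the embryonic form Pabpc1l was higher and the widely expressed Pabpc1 lower in knockout (adjusted p = 0.045 and 0.0106). Pabpn1, the nuclear poly(A)-binding protein related to Pabpn1l, was lower in knockout oocytes and 2-cell embryos (60.0 ± 22.6 CPM in knockout and 136 ± 75.7 CPM in wildtype 2-cell embryos, adjusted p = 0.000526) and higher in knockout 8-cell embryos (112 ± 48.2 CPM in knockout and 54.2 ± 20.9 CPM in wildtype, adjusted p = 0.000996). Of decapping and 5′-to-3′ decay genes, 2 of 15 passed in oocytes, 1 of 13 in 2-cell, 1 of 12 in 4-cell and 3 of 12 in 8-cell embryos. The shares of all genes at these stages were 12%, 17.3%, 16.4% and 12.4%. Of subunits of the Lsm ring that promotes decapping, Lsm6 was higher and Lsm1 lower in knockout oocytes (adjusted p = 0.00737 and 0.0232). Lsm2 was lower in knockout 8-cell embryos (-0.48 ± 0.12, adjusted p = 0.00771). Dcp1a, a partner of the decapping enzyme, was higher at the 2-cell stage (adjusted p = 0.0119). Edc3, an enhancer of decapping, was lower at the 8-cell stage (-0.79 ± 0.27, adjusted p = 0.048). The decapping enzyme gene Dcp2 was higher in knockout 4-cell embryos (35.2 ± 13.04 CPM in knockout and 16.7 ± 7.44 CPM in wildtype, adjusted p = 0.00075) and 8-cell embryos (adjusted p = 0.0259).

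Of uridylation and 3′-to-5′ decay genes, 3 of 13 passed in oocytes, 2 of 14 in 2-cell, 2 of 15 in 4-cell and 4 of 16 in 8-cell embryos. Of all genes tested, 12%, 17.3%, 16.4% and 12.4% passed at these stages. The 2-cell and 4-cell counts were near the background share and are no result about the list. Exosc3, an exosome subunit, was lower in knockout oocytes, 4-cell embryos (186 ± 33.3 CPM in knockout and 262 ± 37.7 CPM in wildtype, adjusted p = 0.00113) and 8-cell embryos. Zcchc11 and Zcchc6, which encode uridylating enzymes, were lower at the 2-cell stage and at the 4-cell stage in turn. Of the other exosome genes, Exosc1 was lower in knockout oocytes (adjusted p = 0.00247) and Exosc7 higher at the 2-cell stage (0.89 ± 0.21, adjusted p = 0.00405). At the 8-cell stage the nuclease gene Dis3 was higher (0.68 ± 0.20, adjusted p = 0.0237) and its relative Dis3l lower (-0.98 ± 0.18, adjusted p = 0.00067). Of 13 oocyte transcripts known to be cleared after fertilization, 4 of 12 tested were higher in knockout oocytes (12% of all genes passed), among them Zp2, a zona protein gene, and Bmp15, an oocyte growth factor gene (5321 ± 1741 CPM in knockout and 3312 ± 931 CPM in wildtype, adjusted p = 0.00478). Then 1 of 11 passed in 2-cell embryos (Zp2), 1 of 6 in 4-cell and 1 of 3 in 8-cell embryos (Oosp1 both times), all higher in knockout. Oosp1, which encodes a secreted oocyte protein, averaged 106 ± 157 CPM in knockout and 34.7 ± 40.1 CPM in wildtype 4-cell embryos (1.68 ± 0.54, adjusted p = 0.0275).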

How the data were processed

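Single oocytes and embryos were profiled by SMART-Seq with Nextera XT libraries, per the labels' protocols. Per the submitters' processing notes the tools were Trimmomatic 0.32, STAR 2.5.1a and featureCounts 1.5.1 on mm10. The authors deposited estimated counts per gene for 128 libraries (41300 genes); 30.56% of non-zero values were not whole, and they were rounded here. Strand setting and treatment of reads with several matches are not given in the sources used here. Libraries under 100000 counts were removed (127 kept, 126 in the fits).

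Genes were tested with edgeR 4.0.16 (R 4.3.3), quasi-likelihood, TMM factors, filterByExpr and Benjamini-Hochberg adjustment over all genes tested, called at 0.05; for stages a log2 change of 1 or more either way was required as well. The fits were tested on simulated data with 200 genes changed by 1 on the log2 scale and the same spread set for every gene. Genotype tests recovered 86.5% to 92.0% of these genes and interaction tests 30.0% to 35.5%. An interaction that did not pass is therefore weak evidence of no difference. DESeq2 1.42.0, limma 3.58.1 (voom), RLE factors, library totals, other filters, a replicate block, sets of replicates and left-out libraries were alternatives. Gene coordinates come from the deposited table on mm10, and gene identifiers and 3′ ends from GENCODE M21. Promoters come from RefSeq on GRCm38.p6, with 7 of 9 genes matched. All 9 genes were named, with the 2 called genes each way of smallest p in each pathway list and the 3 genes of most similar course, 1 of which is not reported here. The genes, lists and tests were chosen with earlier results of these data known. Intervals on fitted log2 values come from edgeR's standard errors and cover the spread between libraries; count ratios and floors cover counting error alone.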

Additional observations from a re-analysis of the deposited data

Results flagged for a closer look

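The change between the 2-cell and 4-cell stages differed between knockout and wildtype embryos for 3 genes in the interaction test: Cnot6l by 1.47, Cnot6 by 1.2 and Btg4 by 1.18 on the log2 scale.

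The library labelled 8-cell knockout replicate 7, which is in none of the tests, was above the highest wildtype 8-cell library for 7 of the 9 genes. It held 12150 CPM of Btg4 against at most 38.3 CPM in wildtype, 1247 CPM of Cnot6l against 26.1 CPM, and 3304 CPM of Cnot7 against 298 CPM. It held 242 CPM of Pan3 against at most 52.4 CPM in wildtype, 98.7 CPM of Cnot6 against 64.1 CPM, 42.4 CPM of Pan2 against 21.3 CPM and 2.41 CPM of Pabpn1l against 1.01 CPM. How this library came to hold these levels was not tested.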

How the results depend on the processing

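The 3 interactions between the 2-cell and 4-cell stages passed under all 8 alternatives run for them. Their highest adjusted p was 0.0191 for Btg4, 0.0172 for Cnot6 and 0.0103 for Cnot6l. The sets of replicates were not fitted apart for interactions. Alternatives left 890 results on the same side, 29 lost and 15 gained a call, and 53 changed sign. Some settings used fewer libraries or genes. The causes of these shifts were not tested.

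Counts over all genes moved with the setting. For knockout against wildtype oocytes 919 genes were called, but 1563 with limma-voom, 164 in replicates 9 to 16, 1517 without MII knockout replicate 15 and 363 with all 8 groups in 1 fit. For 2-cell embryos 1506 became 140 in replicates 9 to 16. For 4-cell embryos 1229 became 2670 without a filter, 140 in replicates 1 to 8, 412 in replicates 9 to 16 and 2709 with all groups in 1 fit. For 8-cell embryos 903 became 1733, 37, 112 and 1359 under the same settings. Without a filter, wildtype and knockout stage changes numbered 14100 and 13545 (oocyte to 2-cell), 16904 and 16420 (2-cell to 4-cell), and 4691 and 2948 (4-cell to 8-cell). The oocyte to 2-cell interaction, 409 genes, became 221 without a filter and ranged from 495 to 651 when 1 library was left out; the 4-cell to 8-cell interaction, 166 genes, became 615 without a filter.

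Of the 9 genes, replicates 1 to 8 called 3 in oocytes, 0 in 4-cell and 0 in 8-cell embryos, and replicates 9 to 16 called 0 in 8-cell embryos. In 2-cell embryos 0 were called without a filter and with all groups in 1 fit, which called 5 in 4-cell embryos. Between the 4-cell and 8-cell stages 1 wildtype change was called without a filter and 1 to 2 when 1 library was left out, and 1 knockout change with limma-voom; limma-voom called 1 oocyte to 2-cell interaction. With 8-cell knockout replicate 7 kept in, 5 were called in 8-cell embryos, 0 wildtype changes from the 4-cell stage and 1 interaction.

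Same-numbered libraries did not deviate together (median r between -0.045 and 0.05). With the replicate number as a block, 0 of the 9 genes were called in 2-cell embryos, 1 wildtype change remained between the 4-cell and 8-cell stages, and that interaction numbered 92 genes. Under the block, signs changed for Cnot8 in oocytes (-0.0009), Zfp36l2 in 2-cell embryos (0.092), Pan2 in the 2-cell to 4-cell interaction (0.145), and Cnot6 (-0.0079) and Pan2 (-0.194) in the 4-cell to 8-cell interaction.

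Other sign changes, none of a called value except with replicate 7, were these log2 values. In oocytes limma-voom gave Cnot7 -0.018, Cnot8 -0.019 and Pan3 -0.034; replicates 9 to 16 gave Cnot6 0.367, Cnot6l 0.094, Cnot8 -0.114 and Pabpn1l -0.243; library totals gave Cnot8 -0.020 and Pan3 -0.00081; without MII knockout replicate 15, Cnot7 read -0.020, Cnot8 -0.005 and Pan3 -0.008. In 2-cell embryos Zfp36l2 read 0.174 with limma-voom, 0.047 without a filter, 0.824 in replicates 9 to 16, 0.044 without 2-cell knockout replicate 13 and 0.042 with all groups in 1 fit; Cnot8 read 0.0035 without a filter and 0.0065 in replicates 1 to 8, where Cnot6l read -0.164 and Pan3 -0.249. In replicates 1 to 8 Zfp36l2 read -0.428 in 4-cell embryos, and Btg4 -0.802 and Pan2 -0.393 in 8-cell embryos. From oocyte to 2-cell stage Pan2 in wildtype read 0.0066 with RLE factors and 0.325 with library totals, and Pan3 in wildtype -0.093 without a filter; in knockout Cnot6 read -0.073 and Pan3 -0.00084 without a filter, and Btg4 0.083 and Cnot6l 0.172 with library totals. From the 2-cell to the 4-cell stage Cnot6 in knockout read 0.106 with library totals, and the Pan2 interaction 0.969 with limma-voom, 0.399 without 4-cell wildtype replicate 1 and 0.0017 without 2-cell knockout replicate 13 (range over left-out libraries -0.105 to 0.399). From the 4-cell to the 8-cell stage Cnot6l in wildtype read -0.0029 with RLE factors and -0.120 with library totals; the interaction of Cnot6 read -0.036 and that of Pan2 -0.706 with limma-voom, and Pan2 -0.171 without 4-cell wildtype replicate 1 (range -0.171 to 0.35). With 8-cell knockout replicate 7 kept in, knockout changes read 4.792 for Btg4, 2.046 for Cnot6l, 0.251 for Pan3 and 0.015 for Cnot6, and interactions 6.407 for Btg4, 2.017 for Cnot6l, 0.458 for Pan3 and 0.0055 for Cnot8. Some settings gave Pabpn1l, Zfp36l2, Pan2 or Btg4 no value, since too few counts remained.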
